A study of Mus musculus with 4 samples.

Results

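The genes described here are 9 genes expressed by olfactory progenitors and immature olfactory neurons, Neurog1, Neurod1, Gap43, Gng8, Dcx, Lhx2, Ebf1, Ebf2 and Tubb3. They were chosen by name, and each was read from a probe set annotated to that gene symbol alone, the brightest over the 4 arrays where a gene had several. All 9 were found among 19938 genes measured this way, each with 1 such probe set. RNA came from nasal mucosa, lifted off septum and turbinates, of mice aged 8 weeks, and 4 h had passed since 25 ul had been dropped into each nostril. The 4 groups were Duox2-/- mice given flagellin, a bacterial protein, at 5 ug/ml, Duox2-/- mice given PBS, wild-type mice given the same flagellin, and wild-type mice given PBS. The labels name the strain of all 4 groups as C56BL/6, and the sources used here do not give how the Duox2 allele was made. Each group had 1 array, with no word on whether its RNA came from 1 mouse or a pool, so no difference between 2 arrays below has a replicate check or a p-value.

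Duox2, an oxidase gene of epithelial surfaces and the targeted gene, had no lower value with the label Duox2-/- than without it. The probe set read 5.504 on the log2 scale in flagellin labelled Duox2-/- and 5.23 in PBS labelled Duox2-/-, against 5.12 in wild-type flagellin and 4.95 in wild-type PBS. The sources used here do not place this probe set inside or outside the altered stretch of Duox2, so it may check nothing about the labels, and every genotype difference below is a difference between arrays by their labels. The interquartile range of the values was narrower in the arrays labelled Duox2-/- (2.43 with flagellin and 2.54 with PBS) than in the wild-type arrays (2.73 and 2.79).

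The olfactory epithelium replaces its sensory neurons throughout life. Basal progenitors pass through a stage that expresses the proneural factors Neurog1 and Neurod1. Their daughters become immature neurons, which carry Gap43 and Gng8 while their axons grow towards the olfactory bulb, and then mature neurons that express Omp and the odour transduction genes. Several of the 9 genes are also used elsewhere: Ebf1 in B lymphocytes and mesenchyme, Ebf2 in mesenchyme, Neurod1 in endocrine cells, Gng8 in vomeronasal neurons, and Tubb3, Dcx and Gap43 in other young or regrowing neurons. Omp, the marker of mature olfactory neurons, stood at log2 values of 12.16 and 11.85 in the flagellin and PBS arrays labelled Duox2-/-, against 11.99 and 11.94 in the wild-type flagellin and PBS arrays, so RNA of olfactory neurons was present on all 4 arrays.

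Of the 9 genes, 5 encode transcription factors, and the promoters of 3 of the genes that carry motifs of those factors' families are printed here. RefSeq promoter windows of build GRCm38.p6, from 250 bases before to 50 bases after a transcription start, were found for 7 of the 9 genes (10 windows), and none for Gap43 and Ebf2. They were searched on both strands, with no overlap between the motifs, for the E-box CANNTG, which proneural factors of the Neurog1 and Neurod1 family bind and for TAATTA, a core that LIM homeodomain factors such as Lhx2 bind. Capitals mark these motifs, and each window is written 5′ to 3′ along its gene's strand.
Neurog1, chr13:56252131-56252430, minus strand: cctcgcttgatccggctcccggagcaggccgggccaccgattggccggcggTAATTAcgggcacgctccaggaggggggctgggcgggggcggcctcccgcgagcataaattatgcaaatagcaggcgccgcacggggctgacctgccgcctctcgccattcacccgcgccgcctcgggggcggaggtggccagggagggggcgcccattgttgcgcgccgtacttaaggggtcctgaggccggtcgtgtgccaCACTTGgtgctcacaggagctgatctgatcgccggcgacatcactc
Neurod1, chr2:79456587-79456886, minus strand: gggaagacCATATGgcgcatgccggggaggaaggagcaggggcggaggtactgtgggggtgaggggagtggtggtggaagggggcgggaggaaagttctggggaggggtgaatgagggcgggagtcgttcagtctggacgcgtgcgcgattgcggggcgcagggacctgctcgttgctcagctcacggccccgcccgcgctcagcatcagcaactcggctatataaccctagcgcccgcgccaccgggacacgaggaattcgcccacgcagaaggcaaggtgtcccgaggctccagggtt
Dcx, chrX:143933170-143933469, minus strand: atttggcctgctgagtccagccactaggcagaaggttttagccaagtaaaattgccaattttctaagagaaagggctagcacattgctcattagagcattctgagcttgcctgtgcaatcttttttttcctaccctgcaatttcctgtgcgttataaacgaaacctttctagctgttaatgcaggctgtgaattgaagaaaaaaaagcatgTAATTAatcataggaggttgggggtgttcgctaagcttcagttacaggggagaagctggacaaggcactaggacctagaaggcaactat
The Neurog1 window holds a TAATTA that begins 199 bases before the start and an E-box just after the start. The Neurod1 window holds an E-box near its far end, and the Dcx window a TAATTA that begins 39 bases before the start. TAATTA was in 3 of the 10 windows, those of Neurog1 and Dcx, where 2 overlapping Dcx windows share 1 match, and in 5.29% of 32851 windows of all genes. An E-box was in 4 of the 10 windows, 1 each of Neurog1, Neurod1, Lhx2 and Ebf1, and in 72.3% of all windows. These are matches of letters within 300 bases and not binding sites.

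The proneural factors gave values near background. Genes were ranked if any array reached a log2 value of 6.52, the median of all values, which stands for signal over background. Neurog1, the factor that commits progenitors to the neuronal fate, had log2 values of 6.40 in flagellin labelled Duox2-/-, 6.09 in PBS labelled Duox2-/-, 5.95 in wild-type flagellin and 5.81 in wild-type PBS. It reached the level for ranking on none of the 4 arrays, so its differences carry less information. Both arrays labelled Duox2-/- were above both wild-type arrays, but genes too dim to rank were more often higher with that label than ranked genes. With no filter on low values 56.3% of 19938 genes were higher in the array labelled Duox2-/- under PBS, against 42.3% of ranked genes. After flagellin these shares were 50.6% and 33.2%. Neurod1, which acts after Neurog1 as progenitors leave the cell cycle, had 6.52 in flagellin labelled Duox2-/-, 6.44 in PBS labelled Duox2-/-, 6.59 in wild-type flagellin and 6.18 in wild-type PBS. Only the wild-type flagellin array reached the level for ranking, and for this gene the wild-type PBS array was low and the other 3 were close together.

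The 4 genes of growing axons and the young cytoskeleton reached the level for ranking on all 4 arrays. Gap43, a phosphoprotein of growth cones, had log2 values of 10.21 in flagellin labelled Duox2-/-, 10.14 in PBS labelled Duox2-/-, 9.80 in wild-type flagellin and 9.89 in wild-type PBS. The arrays parted by label, and the gap between the labels was wider than the gap between treatments within a label. Dcx, the microtubule-binding protein of migrating and young neurons, showed the same order with 9.22 and 9.14 in flagellin and PBS labelled Duox2-/- and 8.94 and 8.95 in wild-type flagellin and PBS. Tubb3, the neuronal beta-tubulin, had 8.596 in flagellin labelled Duox2-/-, 8.25 in PBS labelled Duox2-/- and 8.14 in each wild-type array. Here the flagellin array labelled Duox2-/- stood above the other 3. Gng8, a G protein gamma subunit of immature olfactory and of vomeronasal neurons, had 7.14 in flagellin labelled Duox2-/-, 7.06 in PBS labelled Duox2-/-, 6.81 in wild-type flagellin and 7.07 in wild-type PBS. For Gng8 the wild-type flagellin array was the low one, and the PBS arrays were nearly equal.

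Lhx2, Ebf1 and Ebf2 encode factors that act from the immature stage on and take part in the expression of odorant receptor genes. Lhx2 had log2 values of 9.001 in flagellin labelled Duox2-/-, 8.71 in PBS labelled Duox2-/-, 8.72 in wild-type flagellin and 8.56 in wild-type PBS. Ebf2 had 10.22 in flagellin labelled Duox2-/-, 9.87 in PBS labelled Duox2-/-, 9.93 in wild-type flagellin and 9.84 in wild-type PBS. Both were highest in flagellin labelled Duox2-/- and overlapped between the labels. Ebf1 varied least of the 9, with 9.94 and 9.87 in flagellin and PBS labelled Duox2-/- and 9.82 and 9.70 in wild-type flagellin and PBS.

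**Figure D1:**
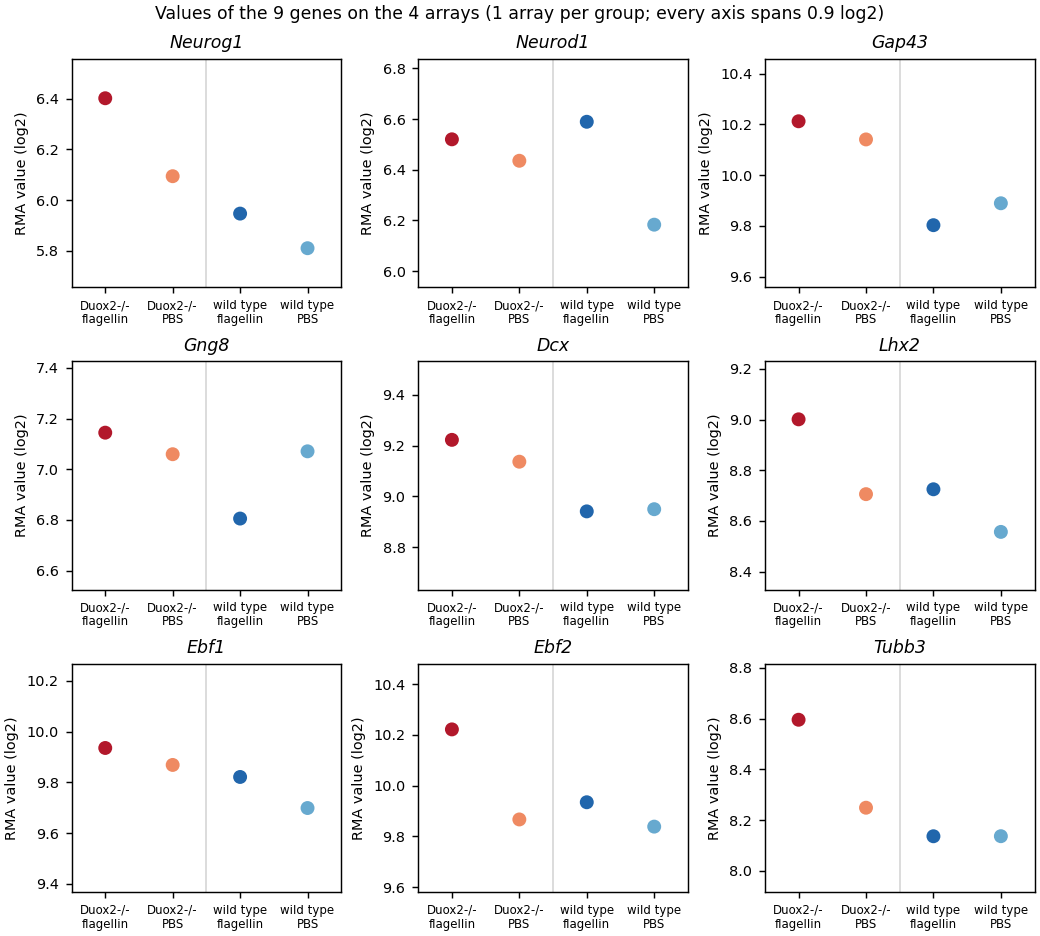
Each panel shows the log2 RMA value of 1 gene (vertical axis) on the 4 arrays, with the arrays labelled Duox2-/- on the left and 1 point per array. The flagellin array labelled Duox2-/- is the highest for 8 of the 9 genes, and the whole spread of a gene is at most 1.51-fold.

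Across the 4 arrays the spread of a gene ran between 1.18-fold for Ebf1 and 1.51-fold for Neurog1. The flagellin array labelled Duox2-/- was the highest for 8 of the 9 genes, all but Neurod1, while 22.3% of the ranked genes were highest there and 51.0% were lowest there. A wild-type array was the lowest for all 9, the PBS array for 5 and the flagellin array for 4. Both arrays labelled Duox2-/- lay above both wild-type arrays for Neurog1, Gap43, Dcx, Ebf1 and Tubb3, which is 5 of 9, against 18.3% of 12471 ranked genes, and none of the 9 had both below, against 39.2%. Neurog1 is not ranked, so these shares do not cover it. Both flagellin arrays lay above both PBS arrays for Neurod1, Lhx2 and Ebf2, which is 3 of 9, against 7.81% of ranked genes, and for none of the 9 did both lie below, against 13.0%. Of these genes Neurod1 is ranked only through a flagellin array, that of wild type. With RNA of whole mucosa, more cells of a type and more RNA per cell cannot be told apart.

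Flagellin against PBS asks whether 4 h of the bacterial protein shifted these genes. In the arrays labelled Duox2-/- none of the 9 differed by 2-fold, where 0.682% of ranked genes did. All 9 were higher with flagellin there, by log2 differences between 0.067 and 0.36, while 37.8% of ranked genes were higher. Their median difference was 0.086, against -0.070 over all ranked genes. Ebf2 at 0.36, Tubb3 at 0.35, Neurog1 at 0.31 and Lhx2 at 0.29 stood apart from the other 5 genes, which lay between 0.067 and 0.086. In wild type none of the 9 differed by 2-fold either, where 0.978% of ranked genes did, and 5 of 9 were higher, against 49.5% of ranked genes. Their median was 0.096, against -0.0018 over all ranked genes. Neurod1 was higher by 0.41 and Gng8 was lower with a difference of -0.27. Dcx at -0.0086 and Tubb3 at -0.00025 were level between the wild-type arrays. The flagellin differences had opposite signs in the genotypes for 4 of the 9 genes, against 48.2% of ranked genes. Over both treatments' and both labels' comparisons, 2 of 36 values lay outside the middle 90% of ranked genes, Ebf2 for flagellin in the arrays labelled Duox2-/- and Neurod1 for flagellin in wild type. Neurod1 is ranked only through the wild-type flagellin array, where it was highest, so its place among ranked genes is not independent of that value.

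**Figure D2:**
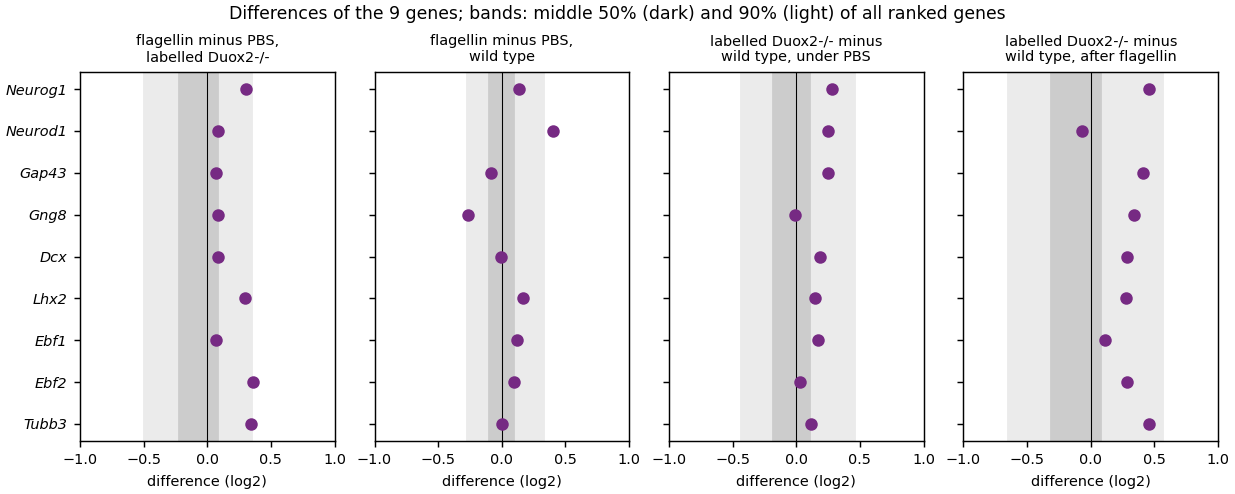
Each panel shows 1 comparison, with the log2 difference on the horizontal axis and the 9 genes down the page. The dark band covers the middle 50% and the light band the middle 90% of ranked genes. All points lie between -0.27 and 0.46, most of them to the right of the dark band in the genotype comparisons.

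Comparing the labels asks how the genes stood in mucosa labelled Duox2-/- against wild type. Under PBS 8 of the 9 were higher in the array labelled Duox2-/-, against 42.3% of ranked genes, with a median difference of 0.17 (-0.041 over all ranked genes). With no filter on low values the share of all genes was 56.3%. Neurog1 was higher by 0.28, Neurod1 and Gap43 by 0.25 each and Dcx by 0.19. Gng8, at -0.011, and Ebf2, at 0.028, were nearly level. None of the 9 reached 2-fold, where 1.41% of ranked genes did, 141 higher and 35 lower, or 111 higher and 49 lower with each array centred on its median. After flagellin 8 of the 9 were again higher in the array labelled Duox2-/-, against 33.2% of ranked genes, with a median of 0.29 (-0.12 over all ranked genes). With no filter the share of all genes was 50.6%. Tubb3 was higher by 0.46, Neurog1 by 0.45 and Gap43 by 0.41, that is by 1.37-fold, 1.37-fold and 1.33-fold. Neurod1 was the exception at -0.069. None of the 9 reached 2-fold, where 2.0% of ranked genes did. The genotype difference had opposite signs in the treatments for 2 of the 9, Neurod1 and Gng8, against 30.5% of ranked genes.

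The difference of the flagellin responses, that of the arrays labelled Duox2-/- minus that of wild type, was above 0 for 7 of the 9 genes, against 40.1% of ranked genes. Its median was 0.16, against -0.067 over all ranked genes, and none of the 9 reached 2-fold, where 1.58% of ranked genes did. Gng8 and Tubb3 had the largest values, 0.35 each, and Neurod1 the lowest, -0.32. This difference uses the same 4 arrays as the pairwise comparisons and adds no independent measurement.

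The fit over all 4 arrays, which takes the flagellin shift as equal in both genotypes and the genotype shift as equal in both treatments, called none of the 9 genes. It was made with limma over 12471 ranked genes, which include 8 of the 9 and leave out Neurog1. Gap43 had the lowest genotype p, with a shift of 0.33 on the log2 scale (SE 0.13, 95% interval 0.032 to 0.63, limma adjusted p = 0.172), and both arrays labelled Duox2-/- were above both wild-type arrays. Tubb3 had a shift of 0.29 (95% interval -0.036 to 0.61, limma adjusted p = 0.269) and Dcx one of 0.23 (95% interval -0.060 to 0.53, limma adjusted p = 0.317). By genotype 0 of the 8 passed, where 4.37% of ranked genes were called, and 1 had an unadjusted p under 0.05, where 23.2% did. That count depended on the scaling: it was 4 of 8 (Gap43, Dcx, Lhx2 and Tubb3) after a repeated quantile normalisation, where 19.9% of genes had such a p, and 4 of 8, the same genes, after cyclic loess, where 18.9% did, but 0 of 8 with centred arrays, where 29.5% did. None of the 8 passed after adjustment in these settings. By flagellin 0 of the 8 passed, where 0.281% of ranked genes were called, and 0 had an unadjusted p under 0.05, where 6.45% did. The largest flagellin shift was that of Neurod1, 0.25 (95% interval -0.073 to 0.56, limma adjusted p = 0.874), a gene ranked only through the wild-type flagellin array. The error term of this model is the interaction, on 1 residual degree of freedom, so a difference between the responses has no test here.

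Other genes of the same stages were read from a list of 29, of which 28 were matched. None reached 2-fold in any of the 5 comparisons, and 0 of 25 tested passed by genotype or by flagellin in limma. They leaned as the 9 did: 24 of 28 were higher in PBS labelled Duox2-/- than in wild-type PBS (median 0.12), and 22 of 28 were higher in flagellin labelled Duox2-/- than in wild-type flagellin (median 0.20). The shares of ranked genes were 42.3% and 33.2%. Of the 28, of which 25 were ranked, 4 were lower with that label under PBS and 6 after flagellin. The proneural factor Neurog2 was higher by 0.63 under PBS and 0.54 after flagellin, but was too dim to be ranked. Insm1, a zinc finger factor of progenitors leaving the cell cycle, had log2 values of 8.57 and 8.37 in flagellin and PBS labelled Duox2-/- and 8.09 and 8.05 in wild-type flagellin and PBS. Its arrays parted by label, as those of Gap43 and Dcx did. With flagellin 21 of 28 were higher in the arrays labelled Duox2-/- (median 0.17) and 17 of 28 in wild type (median 0.039). The shares of ranked genes were 37.8% and 49.5%.

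Mature olfactory neuron genes stood below the 9 in the comparison of the labels under PBS. Of 16 matched genes, which encode the odour transduction channel, its G protein, receptor chaperones and related proteins, 5 were higher in PBS labelled Duox2-/- than in wild-type PBS, against 42.3% of ranked genes, with a median of -0.084. With each array centred on its median, 3 of the 16 were higher and the mature median was -0.17, where that of the 9 was 0.083, so which list lay farther from 0 depended on the scaling. All 9 progenitor and immature genes lay above the mature median, by 0.072 to 0.37, and did so as well after a repeated quantile normalisation and after cyclic loess, while centring moves both lists alike and cannot change this. After flagellin all 16 mature genes were higher in the array labelled Duox2-/-, with a median of 0.16, and 7 of the 9 lay above it, or 6 after cyclic loess. In the flagellin comparison of the arrays labelled Duox2-/- the order was the other way round: 15 of 16 mature genes were higher, with a median of 0.35, and 7 of the 9 lay below it. Kirrel2, an adhesion molecule of olfactory axons, was higher there by 0.67, the largest value of the mature list. In wild type the mature median was 0.049, with 5 of the 9 above it and 4 below. No mature gene passed in limma by genotype or by flagellin (0 of 16 each), and the difference between the lists itself was not tested. Ebf4 is in this list and in that of other progenitor and immature genes.

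**Figure D3:**
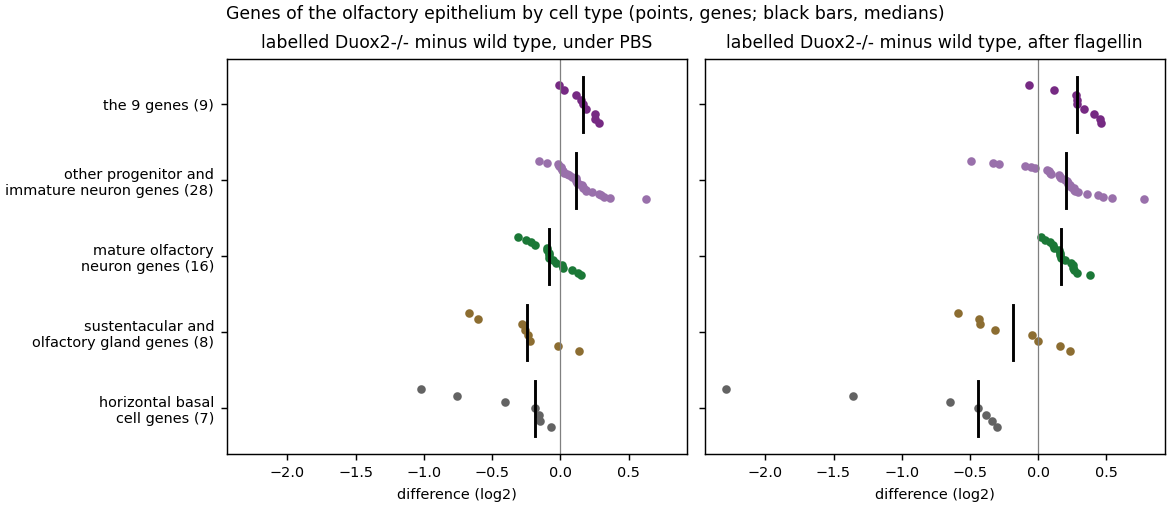
The log2 difference between the array labelled Duox2-/- and the wild-type array (horizontal axis) is shown under PBS on the left and after flagellin on the right, with 1 point per gene, black bars at the medians and the number of genes in parentheses. Under PBS the 9 genes have a median of 0.17 and the mature neuron genes one of -0.084, and after flagellin both lists lie above 0, at 0.29 and 0.16.

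Basal cell genes were lower with the label Duox2-/-, as were most ranked genes. Of 7 horizontal basal cell genes, the reserve stem cells of the epithelium, all were lower in the arrays labelled Duox2-/- under PBS (median -0.18) and after flagellin (median -0.44). Of 12471 ranked genes 7197 were lower under PBS (median -0.041) and 8333 after flagellin (median -0.12). Both arrays with that label lay below both wild-type arrays for 5 of the 7, against 39.2% of ranked genes. Krt5, the keratin that defines basal cells, fell by 1.65 on the log2 scale by genotype in limma (SE 0.25, adjusted p = 0.0178), and Krt14 fell by 1.06 (SE 0.16, limma adjusted p = 0.0187). These keratins also mark respiratory and squamous basal cells. After cyclic loess neither passed (limma adjusted p = 0.106 and 0.102), and the adjusted p of the other settings lay between 0.000685 and 0.0469. Sustentacular and olfactory gland genes had a median of -0.25 under PBS, with 1 of 8 higher, against 42.3% of ranked genes. After flagellin their median was -0.18 with 2 of 8 higher, near the 33.2% of ranked genes that were higher and the median of -0.12 over them.

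Markers of other cell types and tissues also differed between the arrays. The summed linear level of the 9 genes was 1.26 times that of the wild-type PBS array in flagellin labelled Duox2-/-, 1.11 times in PBS labelled Duox2-/- and 1.03 times in wild-type flagellin. For the 16 mature neuron genes the same ratios were 1.24, 0.985 and 1.09, and for the 7 horizontal basal cell genes 0.521, 0.690 and 1.09. Brighter probe sets weigh more in such sums. Cell cycle genes, which dividing progenitors share with all other dividing cells, had ratios of 1.32, 1.39 and 1.45 over 11 genes, and were higher for 11 of 11 in PBS labelled Duox2-/- and for 11 of 11 in wild-type flagellin, each against wild-type PBS. The 10 skeletal muscle genes had ratios of 1.46, 6.48 and 3.05 and the 6 tooth genes 1.73, 7.18 and 0.933, so both lists were highest in the PBS array labelled Duox2-/-. Of the tooth genes 3 were tested and 3 passed by genotype in limma, where 4.37% of ranked genes were called. After cyclic loess none of them passed, as the 1 gene called by genotype there was Bpifb5. The fit takes the genotype shift as equal in both treatments, which these genes did not show. Under PBS their median difference by label was 2.56. After flagellin the tooth genes were higher in the array labelled Duox2-/- for 6 of 6, with a median of 0.86, and the muscle genes for 3 of 10, with a median of -0.66. The part of these other cells and tissues in the differences of the 9 genes was not tested.

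**Figure D4:**
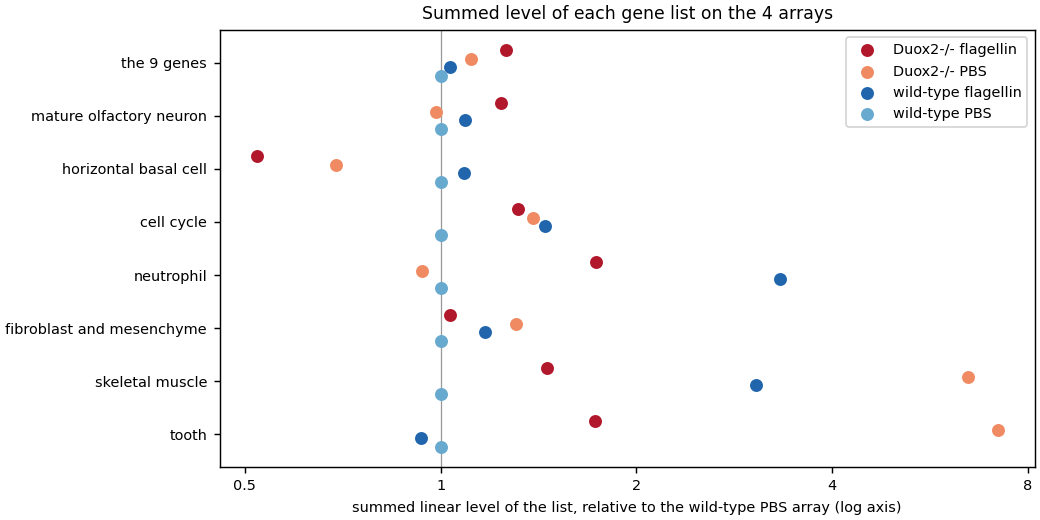
The summed linear level of each gene list is shown relative to the wild-type PBS array (horizontal log axis), with 1 point per array. The 9 genes span 1 to 1.26, against 0.933 to 7.18 for tooth genes and 1 to 6.48 for skeletal muscle genes.

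Other cells that can express members of the set were read from their own markers. The 8 B lineage genes, cells in which Ebf1 is a master factor, were mostly dim, with 7 matched and 1 of them, Vpreb3, bright enough to be ranked. With no filter on low values 56.3% of all genes were higher in the array labelled Duox2-/- under PBS and 50.6% after flagellin. These shares include the ranked genes, at 42.3% and 33.2%, so the shares of dim genes alone were larger. Of the 7 B lineage genes 6 were higher under PBS, with a median of 0.49, and 5 after flagellin, with a median of 0.14. A difference of B lineage genes and the lean of dim genes in general were not told apart. Vpreb3 ran the other way, at -0.79 and -0.63. Both arrays labelled Duox2-/- lay above both wild-type arrays for 4 of the 7, against 18.3% of ranked genes, but only 1 of the 7 is ranked. As Vpreb3 is the brightest, the summed level was still 0.976 times that of wild-type PBS in flagellin labelled Duox2-/- and 0.979 times in PBS labelled Duox2-/-. Ebf1 was higher by label by 0.17 under PBS and by 0.11 after flagellin. The 8 fibroblast and mesenchyme genes, a source of Ebf1 and Ebf2, were lower in flagellin labelled Duox2-/- than in wild-type flagellin for 7 of 8, with a median of -0.36, where Ebf2 was higher by 0.29 and Ebf1 by 0.11. Under PBS 7 of 8 were higher, with a median of 0.39. Neuroendocrine genes, among them Chga, which stores secretory peptides, leaned as the 9 did after flagellin, with 5 of 5 higher in the array labelled Duox2-/- and a median of 0.36. Only 3 of these 5 were ranked. Of ranked genes 33.2% were higher there, and of all genes with no filter 50.6%. The vomeronasal genes Gnao1 and Calb2 were higher there by 0.34 and 0.40 and Gnai2 lower at -0.30, beside Gng8 at 0.34. General and trigeminal neuron genes had 4 of 6 higher after flagellin, with a median of 0.40, and 2 lower, Isl1 at -0.65 among them. Only 3 of the 6 were ranked, and their median genotype shift in limma was -0.072. Olfactory ensheathing and Schwann cell genes had 3 of 6 higher after flagellin, with a median of -0.10.

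The genes whose profile over the 4 arrays was nearest to the median profile of the 9 were Srrm4, Zbtb46, Asic1, Syt4 and Tmem221. Likeness was the root mean square distance between profiles centred on their own means, over 4 arrays and 11511 ranked genes other than receptors and predicted genes, and lay between 0.0104 and 0.0139 for these 5. Srrm4, a splicing regulator of neurons, had log2 values of 6.67 in flagellin labelled Duox2-/-, 6.52 in PBS labelled Duox2-/-, 6.34 in wild-type flagellin and 6.33 in wild-type PBS. The profile they share is high in flagellin labelled Duox2-/-, intermediate in PBS labelled Duox2-/- and low and level in wild type. This likeness describes the 4 arrays and has no test.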

How the data were processed

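Gene expression in nasal mucosa was measured on 4 Affymetrix arrays, 1 per group. The deposited log2 values were made by the authors with RMA in Affymetrix Expression Console 1.1, per the submitters' processing notes, and their scale was read from their range. RMA corrects background, equalises the arrays' distributions at the probe level and summarises each probe set. Between the arrays the deposited values still differed in interquartile range, from 2.43 to 2.79. They were used without another normalisation. The number of arrays limits the precision.

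Of 35556 probe sets, 21789 had 1 gene symbol, 1621 several and 12146 none in the platform annotation. Probe sets with 1 symbol gave 19938 genes (the highest 4-array mean per gene), and 12471 genes reached 6.52, the median of all values, on any array and were ranked. Differences between 2 arrays have no p-value and were read at a size of 2-fold. The additive model, treatment plus genotype, used limma 3.58.1 in R 4.3.3 (lmFit, eBayes, Benjamini-Hochberg at 0.05). Python 3.11.15, numpy 2.4.6, pandas 2.3.3 and matplotlib 3.10.9 did the rest.

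The 9 genes and the 16 lists were chosen with earlier results of these data known. Of the comparison lists, at most the 4 genes with the widest range were named, beside Duox2, Omp and the 5 nearest profiles. Alternatives were 3 other scalings, the mean of a gene's probe sets, no filter on low values, a size of 1.5-fold and an intensity trend in limma. A further one, differences relative to the mature neuron genes, was chosen after seeing the data.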

Additional observations from a re-analysis of the deposited data

Results flagged for a closer look

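Some of the 9 genes differed in opposite directions in the groups compared. With 1 array per group, and with 48.2% of ranked genes doing so for flagellin and 30.5% for genotype, opposite signs are common, and none of these differences was tested. The flagellin response ran opposite ways for Gap43 (0.072 in the arrays labelled Duox2-/- and -0.086 in wild type, a difference of 0.16), Gng8 (0.085 and -0.27, a difference of 0.35), Dcx (0.086 and -0.0086, a difference of 0.095) and Tubb3 (0.35 and -0.00025, a difference of 0.35). The genotype difference ran opposite ways for Neurod1 (-0.069 after flagellin and 0.25 under PBS, a difference of -0.32) and for Gng8 (0.34 after flagellin and -0.011 under PBS, a difference of 0.35).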

How the results depend on the processing

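No paired analysis was possible because each group has 1 array, and leaving out an array from the additive model leaves no residual degrees of freedom. Under 3 other scalings, the mean of a gene's probe sets and no filter, the median difference of the 9 genes stayed above 0 in all 5 comparisons: 0.086 to 0.21 for flagellin in the arrays labelled Duox2-/-, 0.073 to 0.10 for flagellin in wild type, 0.083 to 0.17 for genotype under PBS, 0.23 to 0.44 for genotype after flagellin and 0.16 to 0.24 for the difference of the responses. None of the 9 reached 2-fold in these settings and none reached 1.5-fold in any comparison of the deposited values. For genotype after flagellin the largest difference among the 9 did pass 1.5-fold after 2 of the scalings. It was 0.61 on the log2 scale after a repeated quantile normalisation and 0.63 after cyclic loess. Relative to the mature neuron genes, chosen after seeing the data, the median turned to -0.26 for flagellin in the arrays labelled Duox2-/- and to -0.064 for the difference of the responses, by construction since the mature genes had higher medians there. No limma setting called any of the 9 (lowest adjusted p 0.826 for flagellin and 0.112 for genotype).

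Counts and shares over all genes depended on the settings. The share above 0 for flagellin in the arrays labelled Duox2-/- was 37.8%. It was 49.8% after a repeated quantile normalisation and 51.2% after cyclic loess. For genotype after flagellin the share was 33.2%, against 45.9% and 46.1% after the same scalings. It was 26.5% there with centred arrays and 50.6% with no filter. Without the filter 137 genes passed 2-fold for flagellin in the arrays labelled Duox2-/- (main 85), 312 for genotype under PBS (176) and 318 for the difference of the responses (197). At 1.5-fold 514 and 365 genes passed for flagellin in the arrays labelled Duox2-/- and in wild type, 638 and 1386 for genotype under PBS and after flagellin, and 884 for the difference of the responses. By flagellin limma called 35 genes, against 7 with centred arrays, 0 with cyclic loess (lowest adjusted p 0.0922, with 687 genes under 0.05 unadjusted), 60 with no filter and 81 with a trend. By genotype it called 545, against 159 with centred arrays, 284 after quantile normalisation, 1 after cyclic loess, 1879 with no filter and 921 with a trend. The cause of these changes was not tested.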
